A study of Mus musculus with 9 samples.

Results

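Expression of 10 genes of cholesterol and fatty acid handling was compared in mouse peritoneal macrophages that had been kept alone or exposed to carcinoma cells. The 10 genes were the nuclear receptor genes Nr1h3 (LXRα) and Pparg (PPARγ) and 8 genes that LXR or PPAR receptors are known to regulate or that serve the same lipid traffic: Abca1, Abcg1, Apoe, Pltp, Lpl, Plin2, Fabp4 and Fabp5. They were taken as the genes whose symbol stood in the gene name field of the arrays, which gave 12 probes of 55681, for 10 genes of 24451. Nr1h3 and Lpl had 2 probes each, and the other genes had 1.

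Each of 3 groups had 3 one-colour arrays of total RNA from macrophages of male mice, sorted as CD45+ F4/80+ cells; strain, age and genotype are not given in the sources used here. Group Ctrl was kept alone in regular medium for 24 h. Group T shared its culture with CT-26, a mouse colon carcinoma line, for 24 h in the lower chamber of a Transwell, a well divided by a porous membrane. Group M consisted of migratory macrophages recovered from the upper chamber of such a co-culture, for which no duration is given. The cell type label of the T samples reads migratory macrophages, whereas the titles and the design give that name to M, and the groups follow the titles. Whether the 3 arrays of a group stand for different mice or cultures is not given in the labels, so the p-values rest on the spread among these samples, and that spread may be technical.

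LXR receptors are transcription factors that bind oxidised cholesterol, pair with RXR, and switch on genes that move cholesterol out of the cell. PPARγ also pairs with RXR, is activated by fatty acid derivatives, and is known in macrophages for the control of lipid uptake and storage and of the alternative activation state. In lipid-loaded macrophages the 2 receptor systems are linked, since PPARγ is known to raise LXRα expression.

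The level given for a probe is log2 of its background-subtracted signal minus log2 of the 75th percentile of its array, so that a level of 0 is the 75th percentile and negative levels are common. Levels serve to compare arrays for 1 probe and are not set against those of another probe. Differences between groups are log2 differences with the moderated standard error (SE) of a limma fit to all 9 arrays, and p-values were adjusted over 18594 tested genes by the Benjamini-Hochberg method, with 0.05 as the threshold. In bulk RNA, fewer cells of a type and less RNA per cell cannot be told apart.

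Some arrays stood apart. Replicate spots of a probe varied by a median of 15.0% on M1 and 19.8% on M3, against 4.39% to 8.72% on the other 7 arrays. All Ctrl and M arrays lay on 1 slide and all T arrays on another, so an effect of the slide cannot be told apart from an effect of T, whereas M and Ctrl were compared within 1 slide. All 8 macrophage marker genes listed were above background on every array; Adgre1, which encodes F4/80, was higher in M than in Ctrl by 2.86 (adjusted p = 1.38e-05). Of 6 carcinoma and epithelial markers, Krt8 and Cdh1 were not well above background on all 3 arrays of any group, Krt19 rose in T by 3.63 over Ctrl, and Epcam and Cldn4 fell; the summed signal of the 4 measured markers was 0.628 to 0.723 of the 75th percentile in T, 0.283 to 0.388 in Ctrl and 0.200 to 0.304 in M. Krt19 alone supplied 70.7% to 75.6% of that sum in T, 9.01% to 14.2% in Ctrl and 8.84% to 11.2% in M. The part of carcinoma RNA in the differences of T was not tested.

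Probes of 4 genes that the results turn on are shown by their first 30 of 60 bases, 5′ to 3′, because they define what was measured; positions are those of mouse build mm9 in the array files, and exon and UTR annotation of that build was not used here. The 2 Nr1h3 probes lie on chromosome 2 from 91024345 to 91024404 and from 91024250 to 91024309, on the minus strand with 35 bases between them, and gave different results. Abca1 was measured on chromosome 4 from 53043944 to 53044003 (minus strand), Pparg on chromosome 6 from 115440213 to 115440272 (plus strand) and Fabp4 on chromosome 3 from 10204452 to 10204511 (minus strand).
Nr1h3, brighter probe: tcctgggagctgggtgaaggagagagcctt
Nr1h3, dimmer probe: aacgttgtataccatctgaagaccttgttg
Abca1: gttgcatccctttttgtagaacatttatat
Pparg: gcaggaaagtcccacccgctgacaacgtgt
Fabp4: aagaggcctggatggaaatttgcatcaaac

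Receptor dimers with RXR are known to bind direct repeats of AGGTCA, with 4 bases between the repeats for LXR and 1 base for PPAR. RefSeq promoter windows of 300 bases on GRCm38.p6 (250 before and 50 after an annotated start) were matched for Nr1h3, Pparg, Abca1, Apoe, Pltp and Plin2, 6 of the 10 genes, with 11 windows in all, and not for Abcg1, Lpl, Fabp4 and Fabp5. Both strands were searched. None of the 11 windows held an exact repeat of either spacing, and 0.0152% of all 32851 windows held the 4-base form and 0.0396% the 1-base form exactly. The windows of Abca1 and Plin2 are shown because they held the closest matches to the 4-base form and to the 1-base form, respectively. The Pparg window at chr6:115362099-115362398 equalled Abca1 in its number of mismatches to the 4-base form. Capitals mark the best match, which in both genes lies on the strand opposite to the gene. That of Abca1 begins at position -67 from the start site and has 3 mismatches, a count reached or bettered by 21.9% of all windows. That of Plin2 begins at position -225 and has 2 mismatches, which 3.86% of windows reached or bettered.
Abca1, chr4:53159846-53160145, minus strand: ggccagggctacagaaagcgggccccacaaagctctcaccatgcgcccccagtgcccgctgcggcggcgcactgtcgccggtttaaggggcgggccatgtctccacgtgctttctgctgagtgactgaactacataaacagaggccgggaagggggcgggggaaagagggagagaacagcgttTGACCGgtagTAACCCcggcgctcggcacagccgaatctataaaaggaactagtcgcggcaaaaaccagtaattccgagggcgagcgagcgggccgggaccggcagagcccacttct
Plin2, chr4:86670010-86670309, minus strand: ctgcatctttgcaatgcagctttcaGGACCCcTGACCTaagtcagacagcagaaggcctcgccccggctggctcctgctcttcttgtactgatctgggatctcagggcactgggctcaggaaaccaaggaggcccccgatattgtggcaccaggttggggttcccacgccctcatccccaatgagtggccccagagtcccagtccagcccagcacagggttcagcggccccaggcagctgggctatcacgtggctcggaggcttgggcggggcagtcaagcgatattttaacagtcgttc

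In T against Ctrl, the comparison of macrophages after 24 h with carcinoma cells with those kept alone, the cholesterol exporters Abca1 and Abcg1 rose and no member fell. These were 2 of 10 members, where 44.9% of all tested genes passed the test (17.5% higher and 27.4% lower). The arrays of T and Ctrl did not overlap for 8 members, against 53.6% of all genes. The median difference of the members was 0.17 and that of all genes -0.14.

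In M against Ctrl, macrophages that had migrated with macrophages kept alone, Pparg fell and Abca1 passed the test at signals below background in both groups. That is 2 of 10 members, beside 23.2% of all genes (12.1% higher and 11.1% lower). Arrays did not overlap for 4 members and for 36.2% of all genes, and the medians were -0.15 for the members and -0.10 for all genes.

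In M against T, the migratory macrophages with those of the lower chamber, Abcg1 and the fatty acid carrier Fabp4 were lower in M and Nr1h3 was higher. Abca1 passed as well, with a lower measured signal in M that was below background there. These were 4 of 10 members, beside 25.4% of all genes (14.6% higher and 10.8% lower). Arrays did not overlap for 6 members and for 48.2% of all genes, and the medians were -0.35 for the members and 0.11 for all genes. Each group enters 2 of the 3 comparisons, which are therefore not independent of each other. The median of all genes moved with the scaling: with quantile normalization it was 0.00 for T minus Ctrl, 0.04 for M minus Ctrl and 0.06 for M minus T, and with each array's median in place of its 75th percentile it was 0.28, 0.20 and -0.01.

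**Figure D1:**
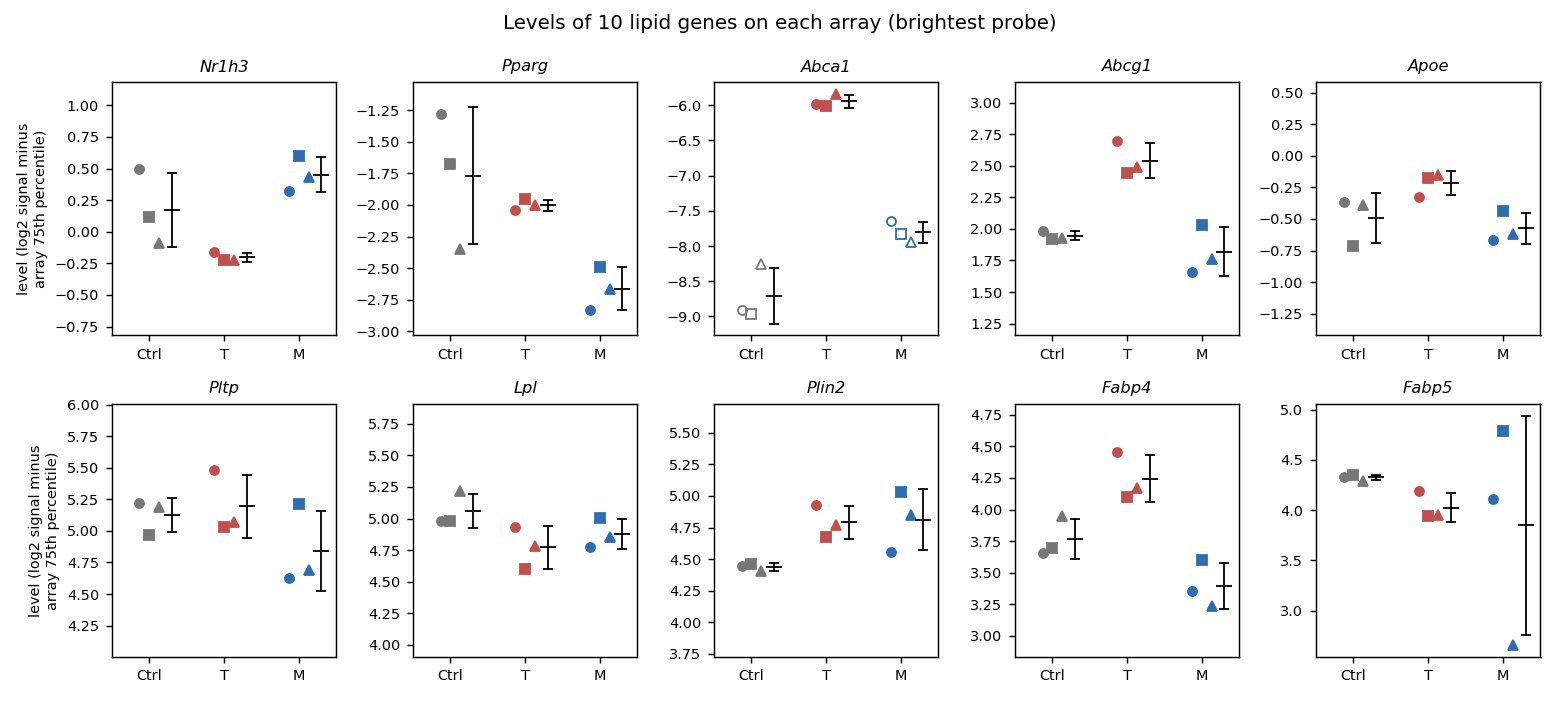
Level of each of the 10 genes (log2 signal minus the array's 75th percentile, vertical axis) on the 9 arrays by group, from the brightest probe. Circles, squares and triangles are replicates 1, 2 and 3, open symbols mark groups whose 3 arrays all failed the background criterion for the probe, and bars are the mean and SD. Abca1 lay between -6.01 and -5.84 on the T arrays, Pparg spread from -2.35 to -1.28 on the Ctrl arrays, and 1 M array stands apart for Fabp5 at 2.65.

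Nr1h3 encodes LXRα, the LXR form that is enriched in macrophages and liver. On its brighter probe the level was 0.49, 0.11 and -0.09 in Ctrl (replicates 1 to 3 in order, here and in what follows), -0.16, -0.22 and -0.22 in T, and 0.32, 0.60 and 0.43 in M. All T arrays lay below all Ctrl and M arrays, and Ctrl and M overlapped. Nr1h3 was higher in M than in T by 0.65 ± 0.18 (SE, n = 3 per group), or 1.57-fold (adjusted p = 0.0269). T minus Ctrl was -0.37 ± 0.18 (adjusted p = 0.123) and M minus Ctrl was 0.28 ± 0.18 (adjusted p = 0.276). The difference between M and T missed the threshold without M2 (adjusted p = 0.0846), M3 (0.0694), T1 (0.0581), T2 (0.0891) or T3 (0.0921), under median scaling (0.53, adjusted p = 0.0796), in the deposited value table (0.31, 0.565), without M1 and M3 (0.80, 0.102), and with the replicate number as a block (0.05002). T minus Ctrl passed without Ctrl3, at -0.50 (adjusted p = 0.0315).

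The dimmer Nr1h3 probe gave another order of the groups. Its level was -1.96, -2.08 and -1.59 on the Ctrl arrays, -0.69, -0.94 and -0.81 on the T arrays, and -0.13, -0.07 and -0.19 on the M arrays. The 3 groups did not overlap. In the fit to all tested probes, this probe was 2.09-fold higher in T than in Ctrl (1.06 ± 0.18, adjusted p = 0.00190), 3.36-fold higher in M than in Ctrl (1.75 ± 0.18, adjusted p = 0.000178) and 1.61-fold higher in M than in T (0.69 ± 0.18, adjusted p = 0.0229). Both probes were thus higher in M than in T by about the same amount, and they differed by 1.44 on the log2 scale in T minus Ctrl and by 1.47 in M minus Ctrl. M minus T was the comparison in which both probes had the same direction and passed. The probes differ in base composition, with 55.0% and 45.0% G or C, and the source of their disagreement was not tested.

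**Figure D2:**
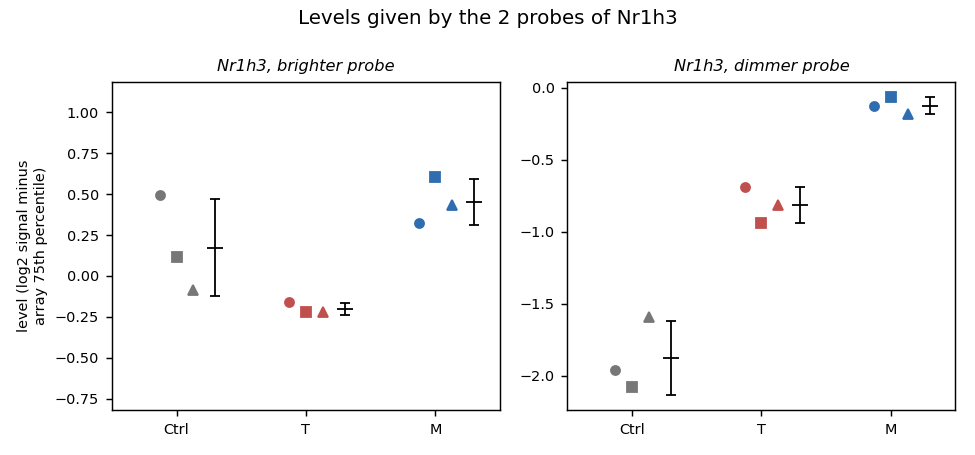
Levels of the 2 Nr1h3 probes (log2 signal minus the array's 75th percentile, vertical axis) on the 9 arrays; symbols are replicates 1 to 3 and bars are the mean and SD. The brighter probe placed the T arrays lowest, at -0.22 to -0.16, whereas the dimmer probe placed the Ctrl arrays lowest, at -2.08 to -1.59, and both placed M above T.

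Pparg encodes PPARγ and was measured by a probe spotted 10 times on each array. Its level was -1.28, -1.67 and -2.35 in Ctrl, -2.04, -1.96 and -2.003 on the T arrays, and -2.83, -2.49 and -2.67 on the M arrays. All M arrays lay below all Ctrl and T arrays, and the narrow T group lay within the range of Ctrl. Pparg fell in M against Ctrl by 0.89 ± 0.25 on the log2 scale, or 1.86-fold (adjusted p = 0.0318). T minus Ctrl was -0.23 ± 0.25 (adjusted p = 0.475) and M minus T was -0.66 ± 0.25 (adjusted p = 0.0804). M minus T passed in 6 of 21 settings. Among them were quantile normalization (-0.66, adjusted p = 0.0421), median scaling (-0.78, 0.0293), array weights (-0.72, 0.00202) and the omission of Ctrl3 (-0.66, 0.0125). T minus Ctrl passed without Ctrl3, at -0.52 (adjusted p = 0.0323).

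The fall of Pparg lost its call under several settings. M minus Ctrl was -0.65 without Ctrl1 (adjusted p = 0.104), -0.85 without Ctrl2 (0.101), -0.81 without M1 (0.103), -0.89 without M3 (0.0914) and -0.89 without T2 (0.0505), and -0.31 against Ctrl3 alone (0.468). It was -0.59 under median scaling (adjusted p = 0.0752), -0.90 in the deposited value table (0.0969), -0.72 without M1 and M3 (0.389), and -0.89 within the slide of Ctrl and M (0.0723). Adipocytes also express Pparg strongly. The summed signal of 7 adipocyte markers was 9.82, 5.56 and 2.06 times the 75th percentile on Ctrl1, Ctrl2 and Ctrl3, 1.51 to 1.86 on the T arrays and 1.92 to 2.17 on the M arrays. Retn supplied 86.2%, 82.0% and 21.7% of the sum on the 3 Ctrl arrays, with levels of 3.08, 2.19 and -1.16. Retn, Adipoq and Plin1 shared the Ctrl order of Pparg, and Lep, Cidec, Cfd and Lipe did not. All 7 were measured in Ctrl; in M against Ctrl 3 fell (Adipoq, Plin1 and Retn) and 4 did not pass, and in T against Ctrl 4 fell (Adipoq, Lep, Plin1 and Cidec) and Cfd rose. The summed macrophage markers had the same order over the Ctrl arrays (221, 181 and 174), as had the sums of the carcinoma, endothelial, mesothelial, T cell, granulocyte and dendritic cell lists, and the B cell list had not. Itgam supplied 55.6%, 53.2% and 41.4% of the macrophage sum on Ctrl1, Ctrl2 and Ctrl3, with levels of 6.94, 6.59 and 6.17. No other macrophage marker shared that order. Adgre1 (0.14, 0.41 and 0.997) and Ptprc (0.12, 0.29 and 0.67) had the reverse order. The part of any of these cell types in the level of Pparg was not tested.

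Abca1 encodes the transporter that loads cholesterol and phospholipid onto lipid-poor apolipoprotein A-I. Its background-subtracted signal was 4.59, 5.62 and 8.80 units on the Ctrl arrays, 33.9, 56.5 and 58.1 on the T arrays and 18.6, 10.9 and 12.3 on the M arrays. The probe was well above background on the 3 T arrays and on no Ctrl or M array, so levels outside T are bounds. Negative control probes had median signals of 0.060 to 9.22 on the Ctrl arrays. On the T arrays they were -2.88 to 2.69 and on the M arrays 5.15 to 25.7. These are mean spot signals minus median background signals, a measure other than the signal given for Abca1.

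On the scaled level, Abca1 stood at -5.99, -6.01 and -5.84 in T, at -8.91, -8.96 and -8.25 in Ctrl and at -7.64, -7.83 and -7.95 in M. The 3 groups did not overlap. Abca1 rose in T, where it was at least 1.46-fold higher than in Ctrl. That bound sets the T arrays against the lowest signal that counted as above background on each Ctrl array, and it was not tested. The difference in measured means, which was tested, was 2.76 ± 0.21 (adjusted p = 1.35e-05). The measured difference of M minus T was -1.86 ± 0.21 (adjusted p = 0.000171). On average, the lowest signal that counted as above background on the M arrays was higher than the level in T. The bound is therefore below 1, no fold can be given, and whether M was truly lower than T is not resolved. M minus Ctrl also passed (adjusted p = 0.0162), but both groups were below background and no fold or direction is given. Both measured differences that involve T kept their sign and stayed past the threshold in every setting that could be fitted, 21 and 20 in number. They were 0.81 to 3.42 for T minus Ctrl and -2.68 to -0.56 for M minus T.

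Abcg1 encodes the transporter that passes cholesterol to high-density lipoprotein particles and was bright in every group. Its level was 1.98, 1.92 and 1.93 on the Ctrl arrays, 2.70, 2.44 and 2.49 on the T arrays, and 1.66, 2.03 and 1.76 on the M arrays. All T arrays lay above all others, and M overlapped Ctrl. Abcg1 rose in T by 0.60 ± 0.17 over Ctrl, or 1.51-fold (adjusted p = 0.0158), and was 1.65-fold lower in M than in T (-0.72 ± 0.17, adjusted p = 0.0105). M minus Ctrl was -0.13 ± 0.17 (adjusted p = 0.580). Without T1, T minus Ctrl was 0.52 and just missed the threshold (adjusted p = 0.0507), and without Ctrl1 and Ctrl2 it was 0.61 (0.0951). Without M1 and M3, M minus T was -0.51 (adjusted p = 0.198). In the deposited value table T minus Ctrl was 0.35 (adjusted p = 0.335) and M minus T was -0.47 (adjusted p = 0.290); 3 columns of that table did not equal the scanner file of their own array.

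**Figure D3:**
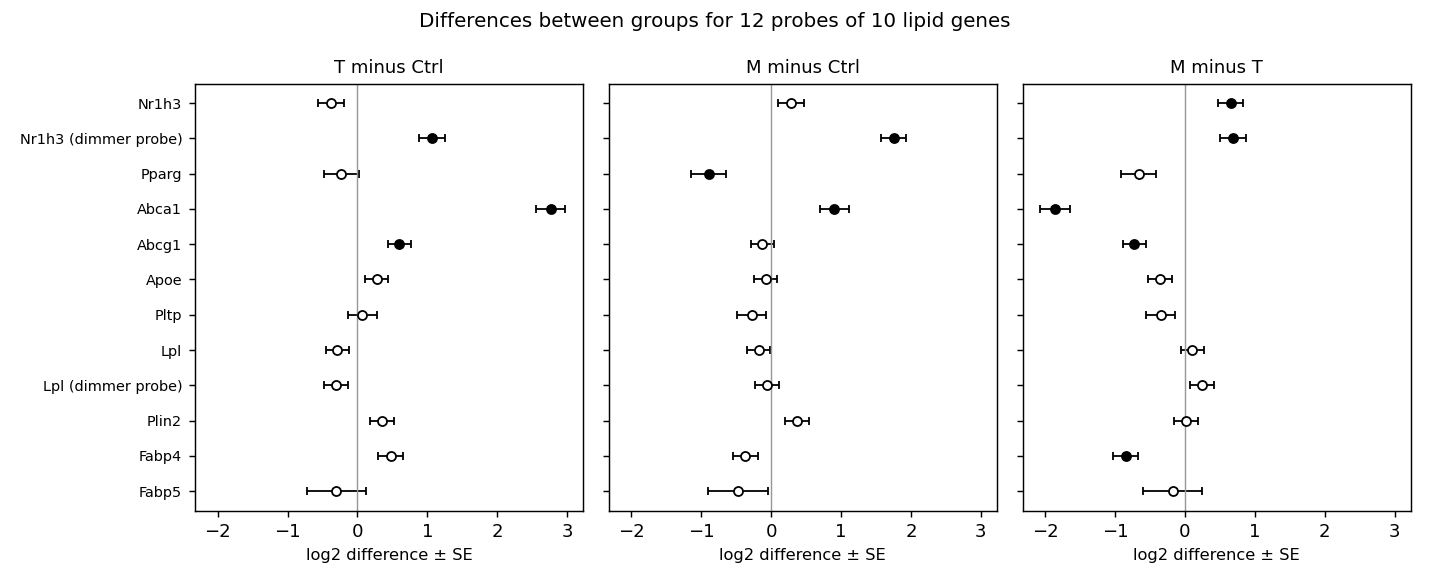
Log2 difference with its SE for the 12 probes of the 10 genes, with 1 panel for each of the 3 comparisons (horizontal axes). Filled points passed an adjusted p of 0.05. In T minus Ctrl the filled points are Abca1 at 2.76, Abcg1 at 0.60 and the dimmer Nr1h3 probe at 1.06, and for Abca1 the Ctrl and M signals were not above background.

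Apoe, Pltp and Lpl act on lipoproteins outside the cell. Apoe encodes apolipoprotein E, which carries cholesterol away from macrophages. Its level, from a probe on chromosome 7 (20281732 to 20281791) spotted 10 times, was -0.37, -0.72 and -0.39 on the Ctrl arrays, -0.33, -0.17 and -0.15 on the T arrays, and -0.66, -0.44 and -0.62 on the M arrays. Every T array lay above every Ctrl and M array, by a small margin, and Ctrl and M overlapped. No comparison passed: T minus Ctrl was 0.27 ± 0.17 (adjusted p = 0.204), M minus Ctrl -0.08 (0.732) and M minus T -0.36 (0.147). T minus Ctrl passed under median scaling, at 0.70 (adjusted p = 0.0273), and with array weights, at 0.44 (0.00907), and M minus T passed with array weights, at -0.44 (0.0104).

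Pltp encodes the phospholipid transfer protein, which remodels high-density lipoprotein. Its level (chromosome 2, 164665022 to 164665081) was 5.22, 4.97 and 5.19 in Ctrl, 5.48, 5.03 and 5.07 in T, and 4.63, 5.21 and 4.69 in M. The groups overlapped, with M2 near the Ctrl arrays and M1 and M3 below them. T minus Ctrl was 0.07 ± 0.21 (adjusted p = 0.811), M minus Ctrl -0.28 (0.330) and M minus T -0.35 (0.256). With M1 and M3 left out, M minus T was 0.02, and under quantile normalization T minus Ctrl (0.32, adjusted p = 0.0473) and M minus T (-0.35, adjusted p = 0.0441) passed.

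Lpl encodes lipoprotein lipase, which frees fatty acids from triglyceride-rich particles. The brighter of its 2 probes (chromosome 8, 71430267 to 71430326) gave 4.98, 4.98 and 5.21 in Ctrl, 4.93, 4.60 and 4.78 in T, and 4.78, 5.003 and 4.85 in M. The dimmer one, 5157 bases away, gave 3.91, 3.90 and 4.14, then 3.64, 3.73 and 3.68, then 3.81, 3.85 and 4.11. On both probes every T array lay below every Ctrl array. The difference of T from Ctrl was -0.29 ± 0.17 on the first (adjusted p = 0.184) and -0.30 on the second (0.163), and none of the other differences passed on either. Unlike those of Nr1h3, the 2 Lpl probes differed from each other by no more than 0.13 in any comparison.

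Plin2 encodes perilipin 2, a coat protein of lipid droplets and a widely used marker of lipid loading in macrophages. Its level (chromosome 4, 86302847 to 86302906) was 4.45, 4.46 and 4.40 in Ctrl, 4.92, 4.67 and 4.77 in T, and 4.55, 5.03 and 4.85 in M. All T and M arrays lay above all Ctrl arrays, and T and M overlapped. T minus Ctrl was 0.35 ± 0.17 (adjusted p = 0.120) and M minus Ctrl 0.37 ± 0.17 (adjusted p = 0.132), so neither passed. M minus T was 0.02 (adjusted p = 0.947). Both differences from Ctrl passed with quantile normalization, at 0.55 (adjusted p = 0.0127) and 0.56 (0.0214), and with median scaling, at 0.78 (0.00928) and 0.67 (0.0312).

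Fabp4 encodes a carrier of fatty acids in the cytoplasm of adipocytes and macrophages. Its level was 3.66, 3.70 and 3.95 in Ctrl, 4.46, 4.10 and 4.17 in T, and 3.36, 3.60 and 3.23 in M. The groups were ordered M, Ctrl, T without overlap. Fabp4 was lower in M than in T by 0.85 ± 0.18 on the log2 scale, or 1.80-fold (adjusted p = 0.00715). That call ended only with M1 and M3 both left out, of 21 settings (-0.65, adjusted p = 0.148). T minus Ctrl was 0.48 ± 0.18 with an adjusted p of 0.0532 and passed in 6 of 22 settings, among them without Ctrl3, at 0.57 (adjusted p = 0.0234). M minus Ctrl was -0.37 ± 0.18 (adjusted p = 0.147).

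Fabp5 encodes a related carrier that is also found in keratinocytes and macrophages. Its level (chromosome 3, 10016185 to 10016244) was 4.33, 4.35 and 4.29 in Ctrl, 4.19, 3.94 and 3.95 in T, and 4.11, 4.79 and 2.65 in M. Ctrl was tight, every T array lay below every Ctrl array, and M3 stood far below M1 and M2. T minus Ctrl was -0.30 ± 0.42 (adjusted p = 0.592), M minus Ctrl -0.47 (0.419) and M minus T -0.17 (0.806). The sign of the M differences rested on M3, since without it M minus Ctrl was 0.12 and M minus T 0.42. M3 was the array with the least even replicate spots, and the probe had 1 spot per array.

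The partners and further targets of both receptors were counted in 7 lists from the same fit. The genes named were taken from the called ones with the largest differences in each list and comparison. Beside the counts, the share of all tested genes that passed was 44.9% in T against Ctrl, 23.2% in M against Ctrl and 25.4% in M against T.

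Of 14 LXR partners and further targets, 11 were tested; Arl4c, Abcg5 and Abcg8 were not above background on all arrays of any group. In M against Ctrl 5 rose and 1 fell, 54.5% of them (median 0.41, against -0.10 for all genes). In M against T 6 were higher and none lower, also 54.5% (median 0.78, against 0.11), and in T against Ctrl 2 rose and 2 fell, 36.4% (median -0.03). Scd1, the stearoyl-CoA desaturase that makes monounsaturated fatty acids, stood at -4.88, -5.08 and -4.99 in Ctrl, -6.02, -5.93 and -5.95 in T, and -2.11, -2.53 and -1.91 in M. It rose 6.98-fold in M against Ctrl (2.80 ± 0.19, adjusted p = 4.12e-06) and fell in T by 0.98 ± 0.19 on the log2 scale (adjusted p = 0.00284). The fall in T missed the threshold under quantile normalization (-0.37, adjusted p = 0.195), median scaling (-0.56, 0.0850) and normexp correction (-0.45, 0.0753), and in the deposited value table (-0.26, 0.726), whereas the rise in M was called in all 22 settings.

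Smpdl3a, a phosphodiesterase that is induced by LXR ligands in human macrophages, stood at -1.48, -0.94 and -0.93 in Ctrl, -1.02, -0.76 and -0.98 in T, and 1.35, 1.13 and 0.88 in M. It rose 4.70-fold in M against Ctrl (2.23 ± 0.21, adjusted p = 4.54e-05). Nr1h2, which encodes the ubiquitous form LXRβ, rose in M by 1.15 ± 0.22 (adjusted p = 0.00589) and in T by 0.77 ± 0.22 (adjusted p = 0.0177), each without overlap with Ctrl. The call in T ended without Ctrl2 (0.54, adjusted p = 0.0607), T2 (0.79, 0.0502) or T3 (0.71, 0.0673). Apoc4 fell in T by 1.01 ± 0.27 (adjusted p = 0.0134) and in M by 0.89 ± 0.27 (adjusted p = 0.0420). The fall of Apoc4 in T ended without T2 (-0.79, adjusted p = 0.0583), under quantile normalization (-0.52, 0.0681) and under median scaling (-0.59, 0.0626). In M it ended under these scalings (-0.57, adjusted p = 0.0711, and -0.59, 0.0921), with normexp correction (-0.41, 0.174), and without Ctrl1 (-0.75, 0.141), Ctrl2 (-0.85, 0.120), M1 (-0.69, 0.141), M3 (-0.97, 0.0853) or T3 (-0.89, 0.0609). The LXR target Srebf1 passed in T by a narrow margin (0.43 ± 0.16, adjusted p = 0.0463) that 17 of 22 settings removed, among them the omission of any 1 of the 9 arrays and the replicate block on the Ctrl and T arrays (adjusted p = 0.0776).

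Of 12 RXR and PPAR genes and cofactors, all were tested. In T against Ctrl 2 rose and 2 fell (33.3%), and in M against Ctrl 1 rose (8.33%). In M against T 3 passed (25.0%), of which Rxra was higher and Ppard lower, and Ppargc1a was below background on all M and T arrays, so that its direction is not given. Rxra, the partner of both LXR and PPAR, had the largest difference. Its level was -4.92, -5.18 and -5.45 in Ctrl, -4.40, -4.37 and -3.72 in T, and -1.78, -1.68 and -1.45 in M. The groups did not overlap. Rxra rose 11.7-fold in M against Ctrl (3.55 ± 0.23, adjusted p = 3.39e-06) and 2.03-fold in T (1.02 ± 0.23, adjusted p = 0.00621), and both calls held in all 22 settings run.

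Ppard, the broadly expressed PPARδ, rose 2.53-fold in T (1.34 ± 0.19, adjusted p = 0.000649) and was lower in M than in T by 1.03 ± 0.19 (adjusted p = 0.00347). A dimmer Ppard probe rose in T as well, by 0.70 (adjusted p = 0.0234), and differed by -0.33 in M minus T (adjusted p = 0.310). Ppara, the PPAR of fatty acid oxidation in liver, fell in T by 1.49 ± 0.34 (adjusted p = 0.00718). Its level was -1.38, -1.93 and -2.97 in Ctrl, the order also seen for Pparg and Retn, and -3.27, -3.71 and -3.77 in T. Against Ctrl3 alone T minus Ctrl was -0.61 for Ppara (adjusted p = 0.127). The PPAR coactivator gene Ppargc1a was above background in Ctrl only and was at least 4.05-fold lower in T than in Ctrl (adjusted p = 0.00120). That bound uses the mean of the Ctrl arrays, whose levels of -3.74, -4.22 and -5.51 had the order of Ppara. Ctrl3 thus lay at the level of the M arrays (-5.51, -5.67 and -5.50), and the bound would be smaller against Ctrl3 alone.

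**Figure D4:**
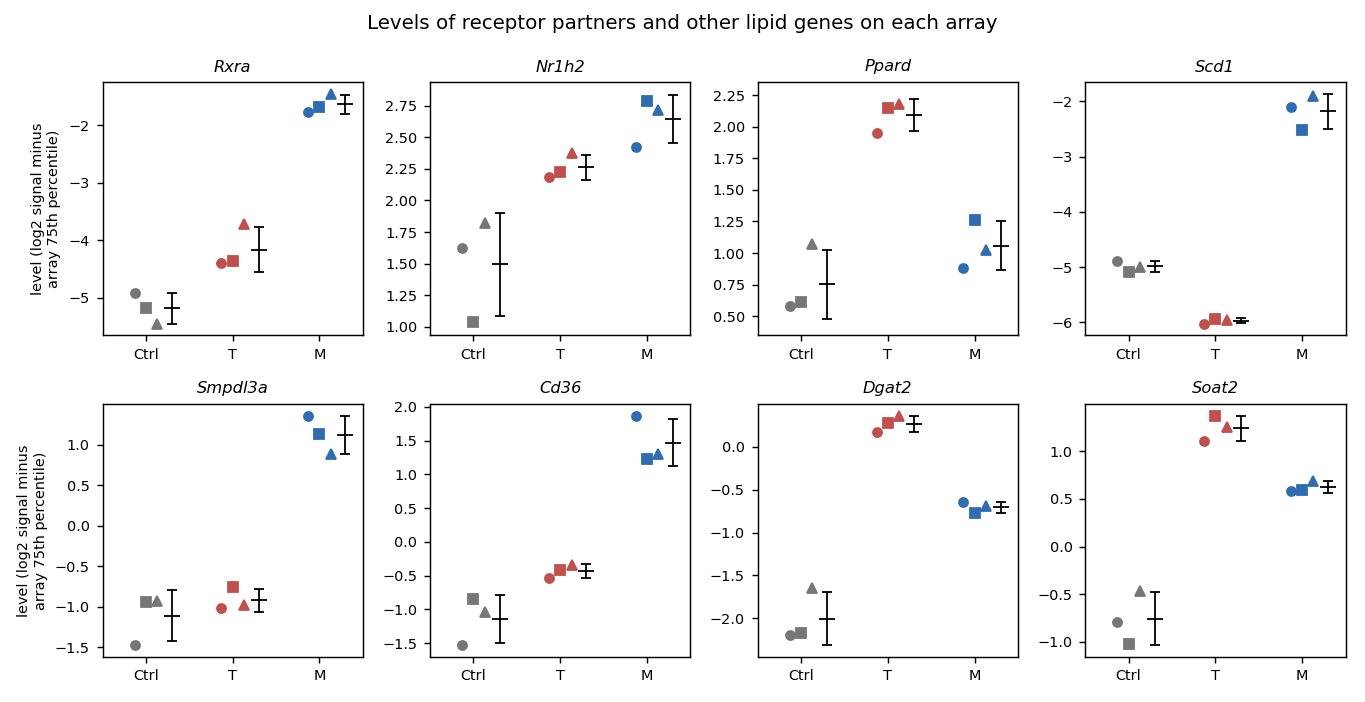
Levels (log2 signal minus the array's 75th percentile, vertical axes) of 8 receptor partners and lipid genes on the 9 arrays; symbols are replicates 1 to 3 and bars are the mean and SD. Rxra, Scd1, Smpdl3a and Cd36 were highest on the M arrays, and Ppard, Dgat2 and Soat2 were highest on the T arrays.

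Of 16 further PPAR targets 13 were tested, and the others, Pdk4 and Olr1 among them, were not above background on all arrays of any group. In T against Ctrl 2 rose and 3 fell (38.5%), in M against Ctrl 3 rose and 1 fell (30.8%), and in M against T 4 were higher and none lower (30.8%). Cd36, the scavenger receptor for oxidised lipoprotein and fatty acids, was at -1.53, -0.84 and -1.04 in Ctrl, -0.54, -0.42 and -0.34 in T, and 1.87, 1.23 and 1.31 in M. It rose 6.10-fold in M against Ctrl (2.61 ± 0.23, adjusted p = 3.40e-05), a call held in all 22 settings, and 1.63-fold in T (0.71 ± 0.23, adjusted p = 0.0321). The rise in T ended without Ctrl1 (0.51, adjusted p = 0.113), T1 (0.76, 0.0513), T2 (0.70, 0.0860) or T3 (0.66, 0.101), and with the replicate block on all 9 arrays (adjusted p = 0.0549), but not with that block on the Ctrl and T arrays alone. Cidec, a lipid droplet protein, was well above background on 2 of the 3 T arrays. It had the largest called fall of the list in T, 1.90 ± 0.62 (adjusted p = 0.0311), from Ctrl levels of -4.61, -2.02 and -4.89. That call ended without T2 (-1.95, adjusted p = 0.0679) or T3 (-1.63, 0.101) and under quantile normalization (-1.39, 0.115), and against Ctrl3 alone the difference was -0.85 (0.122). Angptl4, an inhibitor of lipoprotein lipase, rose 2.24-fold in M (1.16 ± 0.26, adjusted p = 0.0120), and Adipoq, the adipocyte hormone gene, fell in T by 1.12 ± 0.26 and in M by 1.06 ± 0.26 (adjusted p = 0.00770 and 0.0212). The fall of Adipoq in M ended without Ctrl1 (-0.86, adjusted p = 0.0769), Ctrl2 (-1.06, 0.0654) or M1 (-0.96, 0.0758).

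All 22 genes of lipid droplets, esterification and lipolysis were tested, and they moved both ways. In T against Ctrl 7 rose and 9 fell (72.7%), in M against Ctrl 5 rose and 3 fell (36.4%), and in M against T 6 were higher and 5 lower (50%). Dgat2, which completes triglyceride synthesis, was at -2.20, -2.17 and -1.65 in Ctrl, 0.17, 0.28 and 0.36 in T, and -0.65, -0.77 and -0.69 in M, and rose 4.85-fold in T (2.28 ± 0.18, adjusted p = 2.00e-05). Soat2, which esterifies cholesterol, rose 3.996-fold in T (1.999 ± 0.18, adjusted p = 4.00e-05) and 2.60-fold in M (1.38 ± 0.18, adjusted p = 0.000554). The calls for Dgat2 in T and for Soat2 in T and M held in every setting run.

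Lipolysis genes included Abhd5, the coactivator of adipose triglyceride lipase, and its inhibitors G0s2 and Hilpda. Abhd5 was lower in M than in T by 2.16 ± 0.26 (adjusted p = 0.000262), and its other 2 probes differed by -2.40 and -2.39. Hilpda was at 3.93, 3.43 and 3.51 in T and 2.20, 2.09 and 2.05 in M, against 2.11, 2.34 and 2.21 in Ctrl, and was lower in M than in T by 1.51 ± 0.18 (adjusted p = 0.000215), with -2.04 on a further probe. G0s2 fell in T by 1.36 ± 0.24 (adjusted p = 0.00200). Nceh1, a cholesteryl ester hydrolase, rose 3.22-fold in M on its brighter probe (1.69 ± 0.29, adjusted p = 0.00290), while its other probe differed by -0.27 (adjusted p = 0.334).

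**Figure D5:**
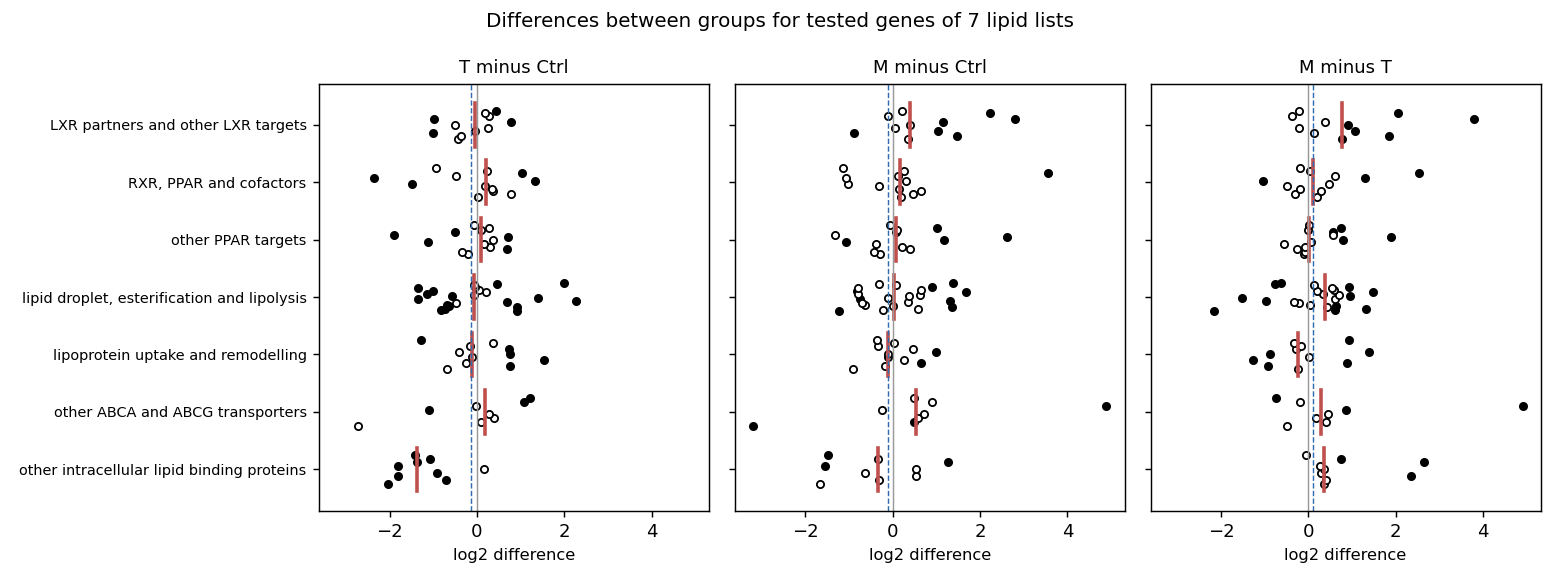
Log2 differences of the tested genes of 7 lipid lists, with 1 panel per comparison (horizontal axes). Each point is a gene, filled where it passed an adjusted p of 0.05, the red bar is the list's median and the dashed line the median of all genes. In M minus T the medians were 0.78 for LXR partners and targets and 0.11 for all genes, and in T minus Ctrl they were -1.38 for other intracellular lipid-binding proteins and -0.14 for all genes.

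Of 12 genes of lipoprotein uptake and remodelling 11 were tested. In T against Ctrl 4 rose and 1 fell (45.5%), in M against Ctrl 2 rose (18.2%), and in M against T 3 were higher and 3 lower (54.5%). Lipc, the hepatic lipase gene, rose 2.88-fold in T (1.53 ± 0.23, adjusted p = 0.000886) and was lower in M than in T by 1.27 ± 0.23 (adjusted p = 0.00322). Msr1, the class A scavenger receptor, rose 1.97-fold in M over Ctrl (0.98 ± 0.20, adjusted p = 0.00757), and a dimmer probe gave 2.16 (adjusted p = 0.00134). Vldlr, the very-low-density lipoprotein receptor gene, fell in T by 1.28 ± 0.23 (adjusted p = 0.00236).

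Of 14 other ABCA and ABCG transporters 8 were tested, with 2 rises and 1 fall in T against Ctrl and in M against Ctrl, and 2 higher and 1 lower in M against T (37.5% in each). Abcg4 and Abcg2 had the rises in T, 1.22 ± 0.20 (adjusted p = 0.00152) and 1.09 ± 0.33 (adjusted p = 0.0230). The 1.22 is that of the brightest Abcg4 probe, and dimmer probes of the gene gave 0.98 (adjusted p = 0.0285) and -0.48 (adjusted p = 0.368). The rise of Abcg2 ended without Ctrl2 (0.88, adjusted p = 0.0869), T2 (0.93, 0.0864) or T3 (1.10, 0.0578). Abca8b was above background on the 3 M arrays and on no Ctrl or T array. It was at least 7.46-fold higher in M than in Ctrl and at least 7.55-fold higher than in T. The measured differences were 4.89 ± 0.29 (adjusted p = 2.05e-06) and 4.91 ± 0.29 (adjusted p = 3.43e-06). Abca8a, encoded by a related gene, fell in T by 1.10 ± 0.26 (adjusted p = 0.00758). Abca12, a lipid transporter of skin, fell in M by 3.20 ± 1.03 (adjusted p = 0.0483) from Ctrl levels of 0.24, -1.02 and -4.54, and 15 of 21 settings removed the call. It was well above background on 1 of the 3 M arrays. Against Ctrl3 alone the difference of Abca12 was -0.43 (adjusted p = 0.791), and the omission of any 1 array except Ctrl3 ended the call.

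Other cytoplasmic carriers of fatty acids and retinoids, the relatives of Fabp4 and Fabp5, were lower in T. Of 11 listed 9 were tested, and 8 fell in T against Ctrl (88.9%) while Fabp3 did not pass (0.17, adjusted p = 0.486). The list median of -1.38 compares with -0.14 for all genes, and no gene of the list rose under quantile normalization or median scaling, where 6 fell in each. List medians there were -1.04 and -0.96, beside 0.00 and 0.28 for all genes. Of all 18594 tested genes, 3715 and 2703 were called lower under these scalings. With normexp correction the list median was -0.81. Low medians in T minus Ctrl were not particular to the carriers. Among the marker lists they were -1.66 for T cell, -1.32 for granulocyte and -1.12 for adipocyte genes, against 0.06 for macrophage and 0.19 for B cell genes. The remaining marker lists lay between. Fabp1, the liver form, fell in T by 1.82 ± 0.27 (adjusted p = 0.000875) and Crabp1, a retinoic acid carrier, by 2.04 ± 0.57 (adjusted p = 0.0167). The fall of Crabp1 ended without Ctrl1 (-1.50, adjusted p = 0.0577), Ctrl2 (-1.78, 0.0632), T2 (-1.94, 0.0527) or T3 (-1.82, 0.0587).

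The Ctrl arrays differed widely for these carriers, with summed signals of 14.1, 11.2 and 5.26 times the 75th percentile on Ctrl1, Ctrl2 and Ctrl3, the order of the summed macrophage and adipocyte markers given above, and 3.52 to 5.28 on the T arrays. With Ctrl1 and Ctrl2 left out, the list median of T minus Ctrl was -0.64, beside -0.24 for all genes. In M against Ctrl 1 rose and 2 fell, and in M against T 3 were higher and none lower (33.3% in each). Fabp7, the brain form, was higher in M than in T by 2.64 ± 0.32 (adjusted p = 0.000248), and Fabp1 by 2.35 ± 0.27 (adjusted p = 0.000200). Each was well above background on 2 of the 3 T arrays, so these differences and the fall of Fabp1 in T rest on T signals near background.

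Genes whose levels ran most closely with a member over the 9 arrays were sought among about 15783 genes above background on every array, as a description. The 9 points share arrays, groups and slides. For Pparg these were Klhl40, Nrap and Fosb (Pearson r = 0.988, 0.987 and 0.986), for Abcg1 Srp9, Chic2 and Lrp1 (0.989, 0.989 and 0.987), for Abca1 Cyp4f16, Epor and Inpp1 (0.996, 0.993 and 0.991) and for Fabp4 Slc25a25, Bcl7b and Dzip1 (0.991, 0.978 and 0.977). For Nr1h3, on its brighter probe, they were A930018P22Rik, Fam151a and Shf (0.985, 0.984 and 0.977), for Apoe Aars2, Ercc1 and Prep (0.983, 0.975 and 0.948), and for Lpl Usp3, Srsf11 and Gdi2 (0.966, 0.964 and 0.963). For Plin2 they were Stx18, LOC633282 and Lrrc20 (0.951, 0.944 and 0.932), for Pltp Gm4098, Shc4 and Nxnl1 (0.977, 0.972 and 0.972), and for Fabp5 Ifi30, Nasp and Nr2c2ap (0.962, 0.952 and 0.951). No member was among the 3 closest genes of another member. Lrp1, the endocytic receptor for Apoe-bearing particles, was the 1 listed lipid gene among them, and it rose in T by 0.76 ± 0.17 (adjusted p = 0.00688) on its brightest probe, with 0.33 (adjusted p = 0.137) and 1.38 (adjusted p = 0.000402) on the other 2.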

How the data were processed

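Total RNA was measured on 9 one-colour Agilent arrays labelled with Cy3, 3 per group, with groups taken from the sample titles. Agilent Feature Extraction 10.7.3.1 is named in the submitters' processing notes. Per the file headers, the authors deposited for each spot a processed signal intensity from which background had been subtracted; no scaling between arrays is recorded there. The deposited flags for spots well above background, outlier and saturated are yes or no codes. The authors also deposited a table of values, with no scale stated, that held 4 columns of linear intensity (medians 195 to 246) and 5 that are log2 values (medians -4.03 to -3.39). Within 0.001 on the log2 scale, its column for M1 matched the scanner file of M2 and the reverse, and its T2 column equalled none, so the scale and centring of T2 stay unknown; it served as an alternative only.

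Of 62976 spots per array, control spots and 147 to 299 outlier spots were left out, none was saturated, and replicate spots were averaged per probe. The level was the log2 signal relative to the 75th percentile of its array. The precision is limited by the number of arrays. Probes were named by RefSeq accession (26762 of 55681, table of GRCm38.p6, names only) or by the array's gene name (6488); 22431 stayed unnamed. A probe was tested if well above background on all 3 arrays of a group, and the brightest tested probe stood for its gene. Group means were fitted to all 9 arrays with limma 3.58.1 in R 4.3.3 (lmFit, eBayes), and Benjamini-Hochberg adjusted p-values under 0.05 were called. The procedure was tested on simulated data with independent noise, which held no slide effect and no arrays noisier than others. The labels give shared replicate numbers with no stated meaning; deviations from group means correlated at 0.60, 0.12 and 0.46 for the same-numbered Ctrl and T arrays, all above 0.1, and this pairing comes from the data alone.

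The members and lists were chosen with earlier results of these data known. Genes named were all 10 members, genes from among up to 2 called rises and 2 called falls per list and comparison, the 3 genes most like each member, and cell type markers. Where a group was not above background on any array, a fold is "at least" the ratio to the higher of the probe's own signal and the array's lowest signal above background. Alternatives were quantile and median scaling, normexp background correction (offset 50), other filters on dim probes, array weights, the deposited table, the slide, a replicate block, other probes, and arrays left out. Some items, a probe sequence among them, are not reported here.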

Additional observations from a re-analysis of the deposited data

How the results depend on the processing

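Calls depended on which arrays and settings were used, and the cause was not tested. For T minus Ctrl, 2 members passed as reported, 5 with quantile normalization, median scaling or array weights, 1 with only probes above background on all 9 arrays, 1 without Ctrl1 and Ctrl2, and 1 (without T1) to 5 (without Ctrl3) with 1 array left out. Of 18594 genes in T minus Ctrl, quantile normalization called 4095 higher and 3715 lower, median scaling 5192 and 2703, and array weights 5001 and 6812. The filter on all 9 arrays called 2842 of 15821 genes higher and 3752 lower there. For M minus Ctrl, 2 members passed as reported, 1 with normexp correction or the filter on all 9 arrays, and 0 to 2 with 1 array left out, with 1 without M3 or T2. Normexp correction called 2246 genes higher and 1584 lower in M minus Ctrl, and that filter 2156 and 1758. By limma, 0 passed without Ctrl1, Ctrl2 or M1, where 3, 2 and 3 had an unadjusted p below 0.05. Likewise 0 passed with the deposited value table, within the slide, without M1 and M3 and without Ctrl1 and Ctrl2, where 1, 2, 2 and 2 had an unadjusted p below 0.05. For M minus T, 4 members passed as reported, 6 with quantile normalization or array weights, 2 with the deposited table, 1 without M1 and M3, and 3 to 5 with 1 array left out. Quantile normalization called 2779 genes higher and 2327 lower in M minus T, and array weights 5281 and 3421. The call for Pparg in M minus Ctrl ended in 10 of 22 settings and that for Nr1h3 in M minus T in 9 of 22.

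Over all genes, T minus Ctrl gave 8350 calls, 3345 without Ctrl1 and Ctrl2 and 5596 to 9939 with 1 array left out. M minus Ctrl gave 4312, then 8230 with array weights, 2055 with the deposited table, 2193 within the slide, 901 without M1 and M3, 1275 without Ctrl1 and Ctrl2, and 1871 to 7969 with 1 array left out (1952 without Ctrl1, 1954 without Ctrl2, 7969 without Ctrl3, 2039 without M1 and 1871 without M3). M minus T gave 4716, then 7395 with no filter on dim probes, 8702 with array weights, 1441 with the table, 2397 without M1 and M3, and 2910 to 6215 with 1 array left out (2959 without T2 and 2910 without T3). Higher calls made up 38.9%, 52.4% and 65.8% of calls in T minus Ctrl with the 75th percentile, quantile and median scalings, 52.3%, 66.2% and 74.3% in M minus Ctrl, and 57.5%, 54.4% and 44.8% in M minus T.

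Changes of direction were seen for differences that had not passed. Under median scaling, T minus Ctrl became 0.048 for Nr1h3, 0.19 for Pparg, 0.14 for Lpl and 0.12 for Fabp5, M minus Ctrl became 0.17 for Abcg1, 0.22 for Apoe, 0.12 for Lpl and 0.019 for Pltp, and M minus T became -0.016 for Lpl and -0.10 for Plin2. Lpl in M minus Ctrl was 0.050 with quantile normalization and 0.011 with normexp, Plin2 in M minus T was -0.18 with normexp and -0.12 in the deposited table, and Apoe in M minus Ctrl was 0.0053 with array weights. Nr1h3 in T minus Ctrl was 0.34 for the mean of its probes and 1.06 for its other probe. Without M1 and M3, M minus Ctrl was 0.088 for Abcg1, 0.057 for Apoe, 0.084 for Pltp and 0.46 for Fabp5, and M minus T was 0.016 for Pltp and 0.76 for Fabp5. Without Ctrl1 and Ctrl2, Pparg in T minus Ctrl was 0.35. With 1 array left out, Pparg in T minus Ctrl ranged from -0.52 to 0.011, Pltp in T minus Ctrl from -0.076 to 0.15, Plin2 in M minus T from -0.088 to 0.15, Fabp5 in M minus Ctrl from -0.94 to 0.12 and Fabp5 in M minus T from -0.64 to 0.42. Where 2 arrays of a group were left out, the lone array is assumed to vary like the other groups.

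Same-numbered arrays of Ctrl and T deviated together, but T2 correlated more with Ctrl3 (0.27) than with Ctrl2 (0.12). Same-numbered pairs that include an M array had correlations of -0.34 (M1 and T1) to 0.033 (M3 and T3), and whether the numbers of M stand for a pairing is not known. With the replicate block on all 9 arrays, 8030 genes and 2 members passed in T minus Ctrl, 4545 and 2 in M minus Ctrl, and 4287 and 3 in M minus T. The block on the Ctrl and T arrays alone, chosen after seeing the data, gave 9481 genes and 2 members in T minus Ctrl and, of the genes named there, ended the call of Srebf1. Ctrl1 correlated more with M2 (0.39) than with M1 (-0.29), and T1 with M2 at 0.38. M1 correlated with Ctrl2 at 0.16, with T2 at 0.19 and with T3 at 0.32. The deposited value table also has the M1 and M2 columns exchanged relative to the scanner files. The block on all 9 arrays used the numbers of the titles, and a block with M1 and M2 exchanged was not fitted. A slide block could be fitted only between Ctrl and M. Signal over background limits Abca1 outside T.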
